A study of Mus musculus with 15 samples.

Results

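The genes described here are 41 genes of fatty acid oxidation, ketone body metabolism and PPAR alpha signalling, measured in mouse liver. They were chosen by name: each gene symbol of a fixed list was looked up among the probes of the array that were not controls, and all 41 were found among the 22032 gene symbols measured. By role they were 4 regulators, 4 genes of fatty acid uptake and storage, 16 genes of mitochondrial and 12 of peroxisomal oxidation, 2 cytosolic thioesterases, 1 ketone body enzyme and 2 other targets of PPAR alpha. The values are signals of single-colour Agilent arrays from male mice of the outbred CD1 strain, which all received weekly hydrodynamic gene delivery (HGD, the fast injection of a large volume that carries plasmid into hepatocytes) with 50 µg of plasmid from week 28 to week 34, and whose livers were taken in week 35. Group C (3 mice) was injected with saline on day 15 of life and received empty plasmid. Group T (4 mice) was injected on that day with diethylnitrosamine (DEN), a carcinogen that induces hepatocellular carcinoma, and received empty plasmid. Group G (6 mice) received DEN and a plasmid that codes for an HA-tagged Gas1, the product of growth arrest specific 1, under the CAG promoter, which is active in most cell types. The labels give an age of 10 weeks for all animals, which differs from the schedule in the study's methods, and neither source says whether the RNA came from tumour or from surrounding tissue.

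In the liver, fatty acids released by adipose tissue or held in lipid droplets are activated to acyl-CoA and oxidised. Mitochondria take up long-chain acyl groups as carnitine esters and shorten them to acetyl-CoA, which fasting hepatocytes turn into ketone bodies, while peroxisomes shorten very long, branched and dicarboxylic chains. PPAR alpha, a nuclear receptor for fatty acids that binds DNA together with a retinoid X receptor, switches on genes of both pathways, and the liver is the tissue where this response to fasting is best known.

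The 15 arrays lay on 2 slides, and no slide lacked a group. In group C, arrays 3 and 4 shared an RNA code and were averaged into 1 mouse (C3), and in group T arrays 4 and 5 likewise (T4). Between 15707 and 29765 spots of an array lay well above background. Gas1 itself, the delivered gene, had mean log2 signals that differed little among the groups (6.53 in C, 6.54 in T and 6.61 in G), and its adjusted p for G against T was 0.768 in limma. Whether the array's Gas1 probe can bind the plasmid's transcript was not tested. All 10 hepatocyte markers were well above background on every array, and their mean log2 signal was 13.91 to 14 in group C, 13.72 to 13.95 in T and 13.68 to 13.91 in G. In whole liver, fewer hepatocytes and less RNA per hepatocyte cannot be told apart.

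Genes of fatty acid oxidation were mostly lower after DEN alone (group T) than in controls, a direction that turned when arrays were only scaled to a common median. Of the 41 genes, 11 fell at an adjusted p under 0.05 in limma (26.8%), beside 2.38% of all 22032 genes in either direction and 1.17% in the lower direction. None of the 41 rose. The log2 difference of T from C was below 0 for 37 of the 41 and had a median of -0.29, against 0.01 over all genes. In 18 genes (43.9%) every mouse of T lay below every mouse of C, beside 8.61% of all genes. All genes include 6403 well above background on no array, while 35 of the 41 were well above it on every array. Of the 8478 genes well above background on every array, 337 were called, 206 of them lower in T. In 946 of the 8478 every T mouse lay below every C mouse. The 11 that fell were Fabp1 and Plin2 of uptake and storage, Acads, Acadl, Acaa2, Decr1 and Etfdh of mitochondrial oxidation, Ehhadh and Acaa1b of peroxisomal oxidation, the thioesterase Acot1 and the kinase Pdk4. Their levels in T were 28% to 75.3% of those in C on the linear scale.

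The count rested on few mice. It was 2 without mouse C1, 1 without C2, 4 without C3, 6 without T2, 3 without T3, 2 without T4 and 13 without T1, and Etfdh was the one gene of the 11 that passed the threshold in every one of the 13 fits that left out a mouse. Each labelling started from the same amount of total RNA and the arrays were quantile normalized, so all values are relative. When arrays were scaled only to a common median, 31 of the 41 differences were above 0 with a median of 0.46, while the 8478 genes well above background on all arrays had a median of 0.65.

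No regulator differed between groups at an adjusted p under 0.05. Ppara, which codes for PPAR alpha itself, had log2 signals of 10.90, 11.20 and 10.85 in mice C1 to C3 and of 11.05, 10.99, 11.13 and 11.10 in mice T1 to T4. In group G its signal ran from 11.05 to 11.71 with a median of 11.48. The groups overlapped, although 4 G mice lay above all mice of C and T. The difference of T from C was 0.08 ± 0.15 (SE) with a 95% interval of -0.24 to 0.40, so a fall of the size seen in Plin2 lay outside it on this scaling. Under median scaling Ppara was the one regulator called, with a rise of 1.06 (adjusted p = 0.0486). G exceeded T by 0.35 ± 0.12 (adjusted p = 0.328) and C by 0.43 ± 0.14 (adjusted p = 0.201). Its 3 probes differed in direction between T and C.

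Ppargc1a, the coactivator of PPAR alpha that rises in fasted liver, lay near the dim end of the array. Its log2 signals were 6.21, 6.45 and 6.63 in C, 6.46, 6.74, 6.50 and 6.47 in T, and 6.34 to 6.69 in G with a median of 6.49. The groups overlapped, and T differed from C by 0.11 ± 0.11 (interval -0.12 to 0.34). Of its 2 probes, 1 was well above background on no array and gave 0.20, while the other, well above on all 15, gave 0.03. Creb3l3, a membrane-bound transcription factor of hepatocytes that acts with PPAR alpha on Fgf21, averaged 12.86 in C, 12.83 in T and 12.99 in G, where 1 mouse (G4) had no valid spot. Fgf21, a hormone that the fasted liver secretes, had signals of 7.15, 7.98 and 7.10 in C, 7.83, 6.75, 7.06 and 7.12 in T, and 6.65 to 9.34 in G with a median of 7.56. Mouse G3 was the highest and G2 (8.44) the next, and the other G mice overlapped with both groups. The interval for T against C, -1.39 to 0.96, was wide, so a change of Fgf21 was not resolved.

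**Figure D1:**
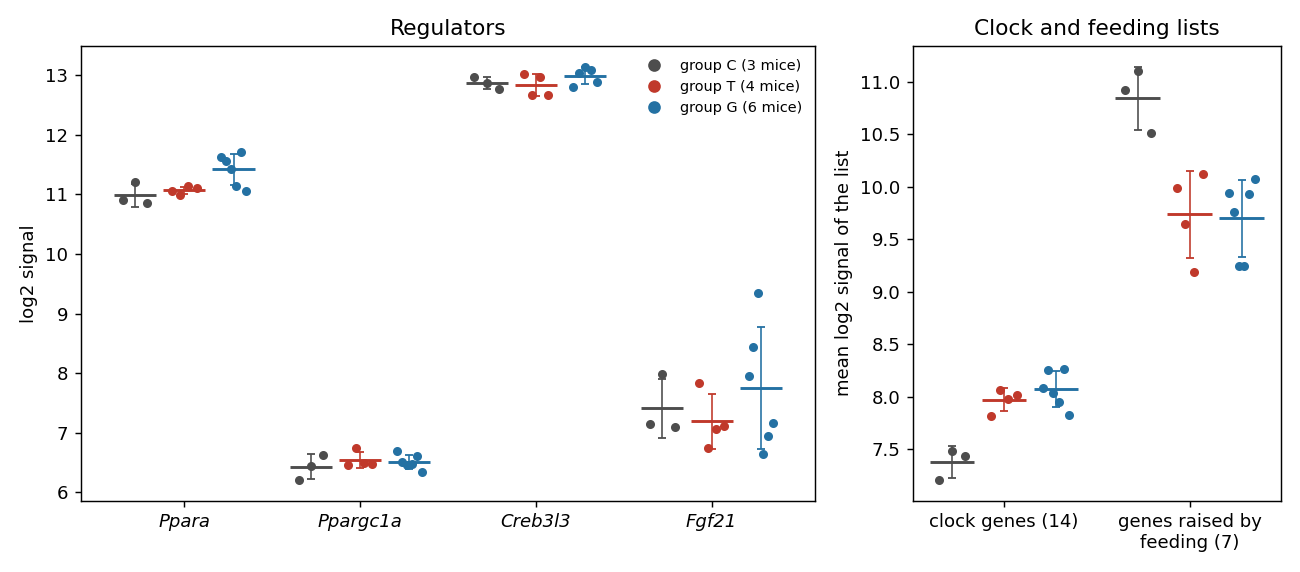
Log2 signal of the 4 regulators (left) and mean log2 signal of the clock and feeding lists (right) in each mouse of groups C, T and G, with points for mice, horizontal bars for group means and error bars for the SD. The regulators overlap between groups. The mean of the clock list in T (7.82 to 8.07) and G (7.83 to 8.27) lies above that in C (7.21 to 7.49), although single clock genes went both ways. The mean of the feeding list in T and G lies below that in C.

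All 4 genes of uptake and storage had lower means in T, and 2 of them, Fabp1 and Plin2, passed the threshold, although under median scaling neither did. Fabp1 codes for the liver fatty acid binding protein, which carries fatty acids in the hepatocyte's cytosol. Its log2 signals were 17.28, 17.49 and 17.24 in C and 16.61, 15.51, 16.66 and 16.61 in T. In G they ran from 16.95 to 17.28 with a median of 17.07. All T mice lay below all C and G mice, with mouse T2 far below the other 3, and C and G overlapped. T was 50.4% of C (log2 difference -0.99 ± 0.22, adjusted p = 0.0415). G exceeded T by 0.74 ± 0.19, which did not pass over all genes (adjusted p = 0.139), and differed from C by -0.24 ± 0.21. The fall of Fabp1 lost its call without C1, C2, C3, T3, T4, G1, G2 or G5, with a highest adjusted p of 0.109, and its direction turned under median scaling (0.10, adjusted p = 0.893).

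Plin2, a protein that coats lipid droplets, had signals of 13.57, 13.34 and 12.87 in C, 12.54, 11.84, 12.34 and 12.04 in T, and 12.64 to 13.29 in G with a median of 12.70. Group T lay wholly below both other groups, which overlapped with each other. T was 47.5% of C (-1.07 ± 0.21, adjusted p = 0.0255), and G was 159% of T (0.66 ± 0.18, adjusted p = 0.163). The call of T against C was lost without C1, C2, T2, T3 or T4 (highest adjusted p 0.0971), and under median scaling the difference was -0.08 (adjusted p = 0.914). Cd36, the fatty acid translocase of the cell membrane, was low throughout, with means of 7.03 in C, 6.33 in T and 6.56 in G, and was well above background on 3 of 5 arrays of T. Acsl1, the main long-chain acyl-CoA synthetase of liver, averaged 12.38, 11.84 and 12.23 in C, T and G, and T differed from C by -0.54 ± 0.22 (adjusted p = 0.187).

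The sequences upstream of 3 genes that fell are shown because PPAR alpha acts through a repeated half-site in promoters of its targets. The motif searched was AGGTCANAGGTCA, a direct repeat with 1 base between its copies, on both strands of the 250 bases before each start in RefSeq (GRCm38.p6), with up to 2 mismatches outside the N. It was found before 7 of the 42 starts listed for 36 of the 41 genes (16.7%), and before 3.24% of all 32851 starts in the same table. With at most 1 mismatch the share of all starts was 0.484%, and Fabp1 and Acot12 were the members that reached it. Among the 9 genes that fell in T and had a sequence, Fabp1 and Plin2 held a match, and the others did not. Capitals mark the match, which in Fabp1 lies on the opposite strand, 67 to 55 bases before the start (chr6:71199629-71199878, plus strand). The sequences before Acaa1b (chr9:119157094-119157343, minus strand) and Etfdh (chr3:79628768-79629017, minus strand), the genes of the smallest adjusted p, held none and are printed without capitals. A match in this window is a description of letters and no measured binding site.
Fabp1: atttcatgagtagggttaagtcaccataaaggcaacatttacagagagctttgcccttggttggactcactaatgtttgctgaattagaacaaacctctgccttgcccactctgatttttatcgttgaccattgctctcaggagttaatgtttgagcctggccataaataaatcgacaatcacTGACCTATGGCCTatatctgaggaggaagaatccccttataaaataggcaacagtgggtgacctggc
Acaa1b: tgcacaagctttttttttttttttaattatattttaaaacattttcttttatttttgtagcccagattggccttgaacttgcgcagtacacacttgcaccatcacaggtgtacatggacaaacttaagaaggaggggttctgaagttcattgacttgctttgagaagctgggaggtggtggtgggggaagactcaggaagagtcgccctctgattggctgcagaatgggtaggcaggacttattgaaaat
Etfdh: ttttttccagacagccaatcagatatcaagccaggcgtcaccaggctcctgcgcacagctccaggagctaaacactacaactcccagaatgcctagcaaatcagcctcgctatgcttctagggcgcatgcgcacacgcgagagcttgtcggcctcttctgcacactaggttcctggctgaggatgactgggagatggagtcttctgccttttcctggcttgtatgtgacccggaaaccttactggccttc

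**Figure D2:**
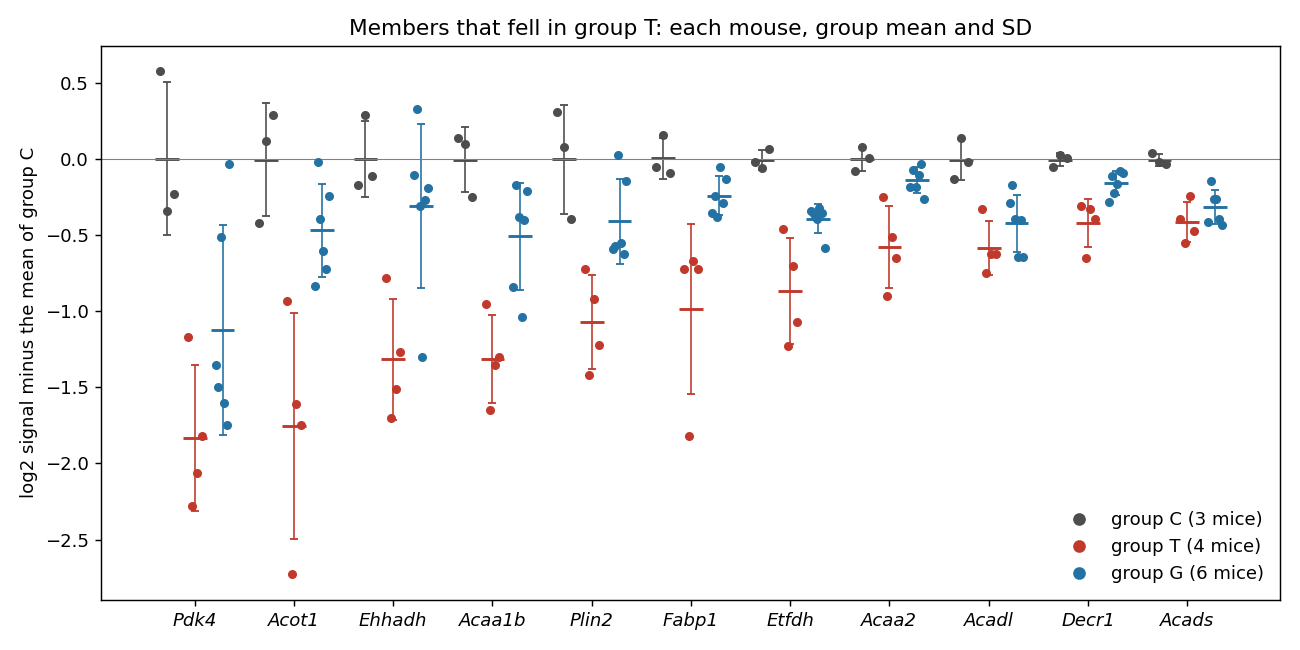
Log2 signal minus the mean of group C for the 11 genes that fell in group T, one point per mouse, with horizontal bars for group means and error bars for the SD. All T mice lie below all C mice in each gene, and the G means lie between those of T and C. The genes were picked by T against C in these same mice, which favours both patterns. Under median scaling the T mean lies above the C mean in Fabp1, Etfdh, Acaa2, Acadl, Decr1 and Acads. On that scaling the median difference of genes well above background on all arrays is 0.65.

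Of the 16 mitochondrial genes, 5 fell in T, 15 had a difference below 0 and the median was -0.24. Under median scaling this median was 0.52, below the 0.65 of all detected genes. Cpt1a codes for the carnitine palmitoyltransferase of the outer membrane, which controls entry of long chains. Its log2 signals were 9.16, 9.13 and 8.93 in C, 8.79, 8.95, 9.08 and 8.89 in T, and 9.07 to 9.41 in G with a median of 9.21. C and T overlapped, and so did T and G by the values of T3 and the lowest G mouse. T differed from C by -0.14 ± 0.10 (interval -0.35 to 0.06, adjusted p = 0.444), and G exceeded T by 0.29 ± 0.08 (adjusted p = 0.185). Cpt2, the transferase of the inner membrane, averaged 8.83, 8.68 and 8.68 in C, T and G. Crat, the carnitine acetyltransferase, was well above background on 1 of 4 arrays of C, on 0 of 5 of T and on 4 of 6 of G. Its means, 6.42 in C, 6.29 in T and 6.37 in G, lay near the dim end, so no fold change is given. T overlapped with both other groups (adjusted p = 0.369 for T against C and 0.734 for G against T).

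The acyl-CoA dehydrogenases carry out the first step of each cycle and differ in the chain length they prefer. Acads, for short chains, had signals of 9.35, 9.29 and 9.28 in C, 8.92, 8.76, 9.07 and 8.84 in T, and 8.88 to 9.17 in G with a median of 8.99. Groups T and G overlapped and both lay wholly below C. T was 75.3% of C (-0.41 ± 0.08, adjusted p = 0.0293), and G was 80.6% of C (-0.31 ± 0.08, adjusted p = 0.104). Acadl, for long chains, had signals of 8.50, 8.77 and 8.61 in C, 8.30, 7.88, 8.01 and 8.01 in T, and 7.99 to 8.46 in G with a median of 8.23. Here too T and G overlapped below all C mice. T was 67.2% of C (-0.57 ± 0.12, adjusted p = 0.0355) and G was 74.9% of C (-0.42 ± 0.11, adjusted p = 0.142). Acadm, for medium chains, averaged 12.98 in C, 12.74 in T and 13.04 in G and did not pass (adjusted p = 0.618 for T against C). Acadvl, for very long chains at the inner membrane, averaged 13.79, 13.56 and 13.81, and its T mice lay wholly below both other groups, with adjusted p of 0.0646 against C and 0.0873 for G against T, the lowest of the 41 genes in that comparison. The call of Acads was lost without C1, C2, T2 or T4 and that of Acadl without C1, C2, C3, T2, T3 or T4 (highest adjusted p 0.0982 and 0.104), and under median scaling their differences were 0.47 and 0.21.

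Later steps of the spiral differed among themselves. Acaa2, the mitochondrial thiolase that splits off acetyl-CoA, had signals of 15.14, 15.30 and 15.23 in C, 14.97, 14.32, 14.71 and 14.57 in T, and 14.96 to 15.19 in G with a median of 15.08. T lay wholly below C, and T and G overlapped only by mouse T1 and the lowest G mouse. T was 66.8% of C (-0.58 ± 0.12, adjusted p = 0.0278), and G was 136% of T (0.44 ± 0.10, adjusted p = 0.108). Decr1, a reductase needed for polyunsaturated chains, had signals of 10.11, 10.19 and 10.17 in C, 9.85, 9.51, 9.83 and 9.77 in T, and 9.88 to 10.08 in G with a median of 10.03. Its groups did not overlap and stood in the order T, G, C. T was 75% of C (-0.42 ± 0.08, adjusted p = 0.0238), and G was 120% of T (0.26 ± 0.07, adjusted p = 0.147) and 89.9% of C (-0.15 ± 0.07, adjusted p = 0.398). The calls of Acaa2 and Decr1 were lost without C1, C2, C3, T3 or T4 (highest adjusted p 0.0813 and 0.0737), and under median scaling the differences were 0.50 and 0.25. Hadh, Hadha and Hadhb, which code for the short-chain dehydrogenase and for both subunits of the trifunctional protein, differed from C by -0.03, -0.30 and -0.22 in T, with adjusted p from 0.243 to 0.971.

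The electron-transferring flavoprotein takes electrons from the dehydrogenases and hands them to its own dehydrogenase, Etfdh, which reduces ubiquinone. Etfdh had signals of 11.30, 11.26 and 11.39 in C, 10.86, 10.09, 10.62 and 10.25 in T, and 10.74 to 11 in G with a median of 10.97. Both T and G lay wholly below C, and mouse G6 alone lay within the range of T. T was 55.0% of C (-0.86 ± 0.14, adjusted p = 0.0156), which held without any 1 mouse (highest adjusted p 0.0493) but turned to 0.13 under median scaling. G was 139% of T (0.47 ± 0.12, adjusted p = 0.145) and 76.3% of C (-0.39 ± 0.13, adjusted p = 0.225). The subunits of the flavoprotein itself did not pass the threshold. Etfa averaged 11.49 in C and 11.16 in T (adjusted p = 0.116), with probes at -0.15 and -0.51, and Etfb averaged 14.17 and 14.26. Acot2, a mitochondrial thioesterase, was well above background on no array.

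Of the 12 peroxisomal genes, 2 fell in T, all 12 differences were below 0 and the median was -0.30. Under median scaling this median was 0.48, below the 0.65 of all detected genes. Ehhadh codes for the bifunctional enzyme of straight chains, which hydrates and dehydrogenates. Its log2 signals were 11.18, 11.64 and 11.24 in C, 10.57, 9.65, 9.84 and 10.08 in T, and 10.05 to 11.68 in G with a median of 11.12. T lay wholly below C, and of G only mouse G4 lay among the T mice while G3, G5 and G6 lay between T and C and G1 and G2 lay within or above the range of C. T was 40.1% of C (-1.32 ± 0.31, adjusted p = 0.0461). G was 201% of T (1.01 ± 0.26, adjusted p = 0.149), and without mouse G4 this difference was 1.20 with an adjusted p of 0.0457. The fall in T lost its call without C1, C2, C3, T2, T3, T4, G1, G3 or G5 (highest adjusted p 0.12), and under median scaling the difference was -0.33 (adjusted p = 0.608).

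Acaa1a and Acaa1b are peroxisomal thiolases of nearly identical sequence, so their probes may share signal. Acaa1b had signals of 13.63, 13.59 and 13.24 in C, 12.54, 11.84, 12.14 and 12.19 in T, and 12.45 to 13.32 in G with a median of 13.10. T lay wholly below C, while G reached into both ranges, with G4 within T. T was 40.2% of C (-1.31 ± 0.21, adjusted p = 0.0140), the smallest adjusted p of the 41 genes, and the call was lost without C1 or C2 (highest adjusted p 0.057) and under median scaling (-0.32, adjusted p = 0.524). G was 175% of T (0.81 ± 0.18, adjusted p = 0.110) and 70.4% of C (-0.51 ± 0.20, adjusted p = 0.294). Acaa1a had signals of 13.84, 13.82 and 13.99 in C, 13.73, 13.62, 13.81 and 13.75 in T, and 13.54 to 14.16 in the 5 G mice with a valid spot (median 13.94). Its T mice also lay below all C mice, but by little: the difference was -0.16 ± 0.12 (interval -0.43 to 0.12, adjusted p = 0.535).

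The remaining peroxisomal genes did not pass the threshold. Crot, which makes carnitine esters of the shortened chains for export, and Pex11a, a membrane protein of peroxisome division, differed from C by -0.53 and -0.48 in T, with T wholly below C (adjusted p = 0.196 and 0.176). Hsd17b4, the bifunctional enzyme of branched chains and bile acid precursors, and Scp2, a thiolase and sterol carrier, differed by -0.32 and -0.29 (adjusted p = 0.235 and 0.107). The probes of Scp2 gave -0.07 and -0.52. Acox2, the oxidase of branched chains, averaged 12.72 in C, 12.50 in T and 12.49 in G. Both T and G differed from C by -0.23 ± 0.09 (adjusted p = 0.2 and 0.265). Decr2, the peroxisomal dienoyl reductase, averaged 12.15 in C, 12.14 in the 3 T mice with a valid spot and 12.66 in G (adjusted p = 0.342 against T). The thioesterases Acot3, Acot4 and Acot5, which release free acids from acyl-CoA, had means of 6.44, 7.19 and 6.12 in C, near the dim end, and differences of -0.28, -0.39 and -0.01 in T. Of the Acot3 probes, the one well above background on 10 arrays gave -0.62 and the other, on 1 array, gave 0.06. Those of Acot5 gave -0.13 (5 arrays) and 0.11 (0 arrays).

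The medians of the mitochondrial and of the peroxisomal genes lay close together in most mice. In each mouse the median log2 difference of the 16 mitochondrial genes from the mean of C was -0.50 to -0.17 in T, -0.16 to -0.01 in G and -0.01 to 0.04 in C. For the 12 peroxisomal genes it was -0.42 to -0.14 in T, -0.17 to 0.12 in G and -0.01 to 0.04 in C. All 4 T mice lay below all C mice in both sets. All 6 G mice lay above every T mouse for the mitochondrial set, and 5 of 6 did for the peroxisomal set. Within a mouse, the peroxisomal median minus the mitochondrial one was -0.10 to 0.08 in T and -0.06 to 0.13 in G, so neither set was lower in all T mice. The medians come from the same mice as the single genes, and their direction in T turned under median scaling, as given above. On that scaling the median of all detected genes was 0.65.

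**Figure D3:**
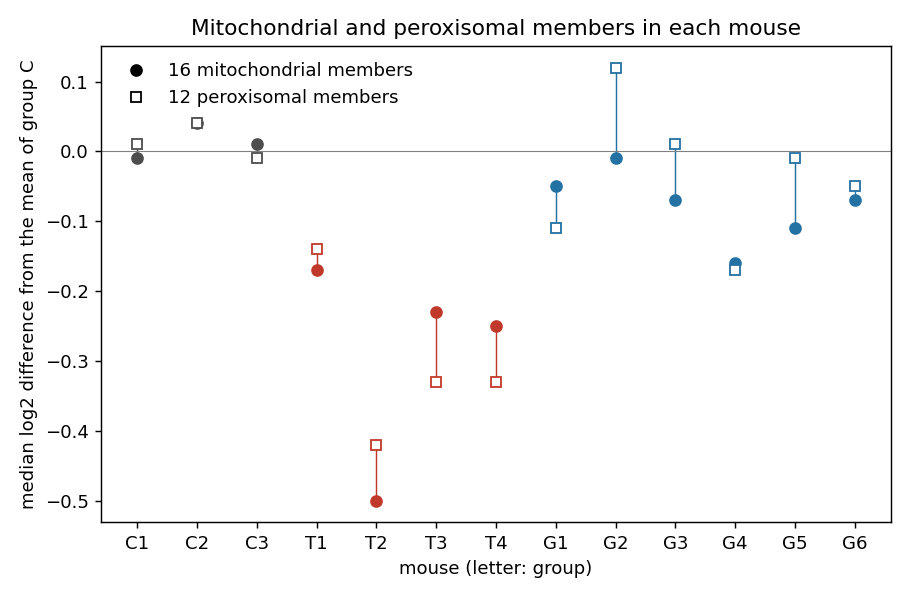
Median log2 difference from the mean of group C over 16 mitochondrial (filled circles) and 12 peroxisomal genes (open squares) in each mouse, joined by a line. T mice lie at -0.50 to -0.14 and G mice at -0.17 to 0.12, with mouse G4 below T1 in the peroxisomal set. Under median scaling the median differences between T and C over the genes of each set are above 0 (0.52 and 0.48). The median of genes well above background on all arrays is then 0.65.

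Outside both organelles, Acot1 had one of the largest falls. It codes for a cytosolic long-chain acyl-CoA thioesterase that is strongly raised by PPAR alpha agonists, and near-identical members of its family may share its probe's signal. Its log2 signals were 8.84, 9.38 and 9.55 in C, 8.33, 6.53, 7.65 and 7.51 in T, and 8.43 to 9.24 in G with a median of 8.77. T lay wholly below both other groups, with T2 lowest, and G overlapped with C. T was 29.7% of C (-1.75 ± 0.33, adjusted p = 0.0236), lost without C2, C3, T3 or T4 (highest adjusted p 0.0737) and under median scaling (-0.94, adjusted p = 0.178). G was 244% of T (1.29 ± 0.28, adjusted p = 0.104) and 72.5% of C (-0.46 ± 0.31). Acot12, a cytosolic acetyl-CoA hydrolase of liver, took 2 separate levels that did not follow the groups: 5 mice (C3, T2, T3, G5 and G6) lay at 6.91 to 7.22 and the other 8 at 8.45 to 9.44. It was singled out after its values had been seen, and rests on 1 probe.

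Bdh1, the mitochondrial enzyme that turns acetoacetate into beta-hydroxybutyrate, stood for ketone bodies. Its log2 signals were 10.72, 11.01 and 10.75 in C, 10.87, 10.23, 10.67 and 10.45 in T, and 10.37 to 11.10 in G with a median of 10.89. All 3 groups overlapped, and T differed from C by -0.27 ± 0.17 (interval -0.63 to 0.09, adjusted p = 0.411). Pdk4 codes for a kinase that switches off pyruvate dehydrogenase, sparing glucose while fat is burned. It had signals of 9.29, 8.37 and 8.48 in C, 7.54, 6.43, 6.65 and 6.89 in T, and 6.96 to 8.68 in G with a median of 7.29. T lay wholly below C, while G overlapped with both, mice G3 and G6 being the highest. T was 28% of C (-1.84 ± 0.41, adjusted p = 0.0394), the lowest share of the 41 genes, and the call was lost without C1, C2, C3, T2, T3, T4 or G1 (highest adjusted p 0.144) and under median scaling (-1.14, adjusted p = 0.121). G was 164% of T (0.71 ± 0.34, adjusted p = 0.483) and 45.8% of C (-1.13 ± 0.38, adjusted p = 0.216). Vnn1, a pantetheinase induced by PPAR alpha, was dim in all groups, with means of 6.36, 6.38 and 6.58.

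**Figure D4:**
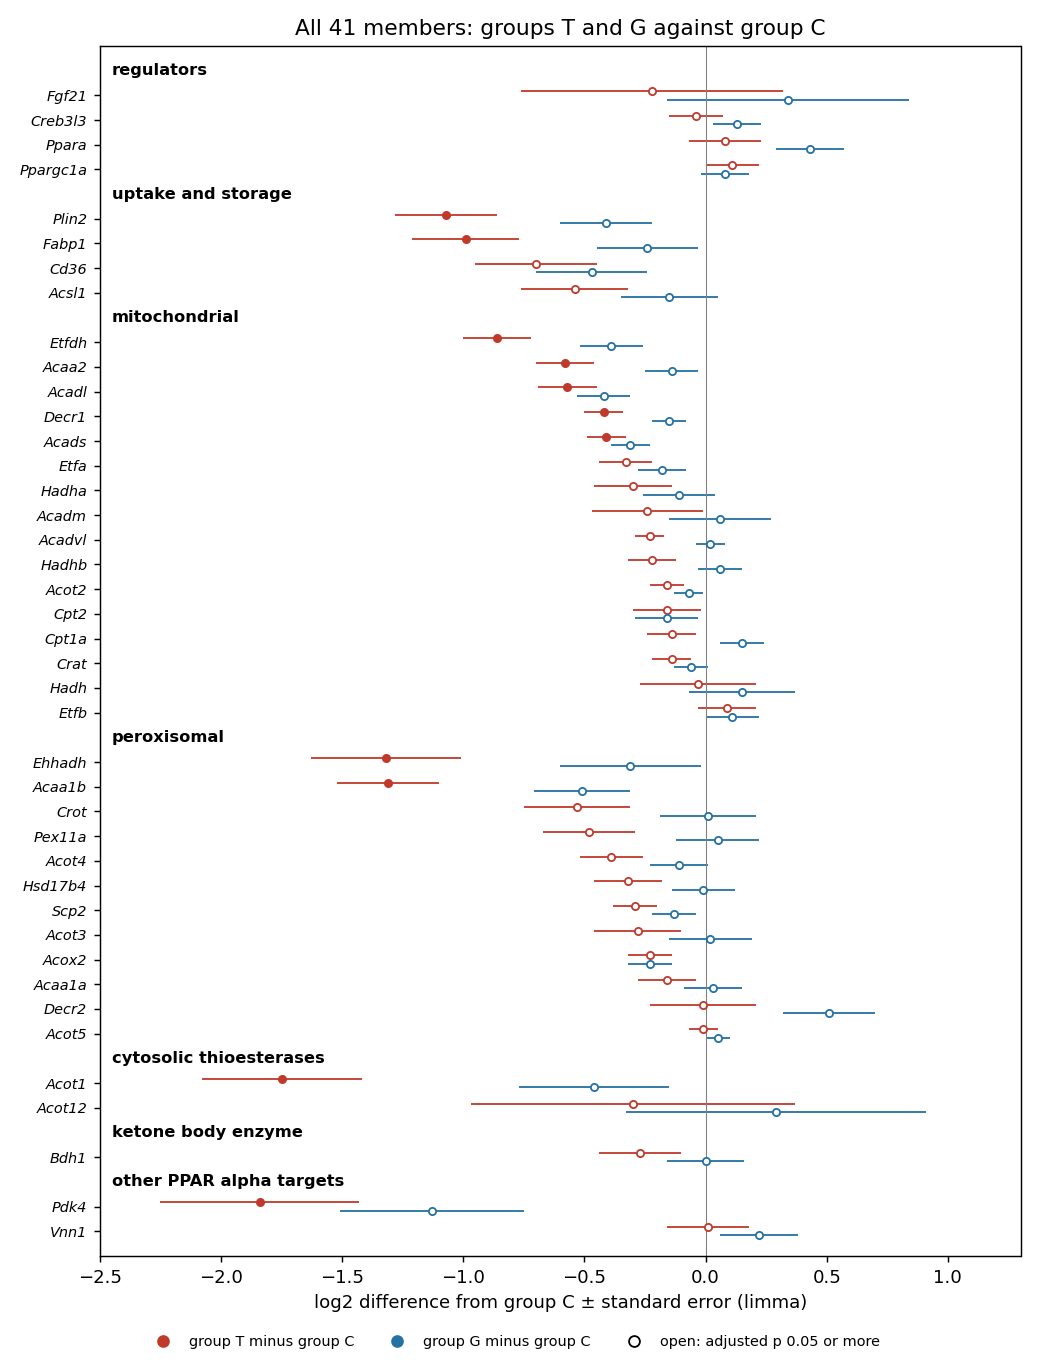
Log2 difference from group C of group T (red) and group G (blue) for all 41 genes by role, with bars for the standard error and filled points for an adjusted p under 0.05. The 11 filled points are all of group T and range from -1.84 to -0.41, and no G point is filled. Under median scaling 31 of the 41 T differences lie above 0, where the median of genes well above background on all arrays is 0.65.

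Mouse T2 stood lowest among the T mice in 31 of the 41 genes and in all 11 that fell, and mouse T1 was highest in 25 and 9 of them. The hepatocyte marker list of T2 (13.76) lay between those of the other T mice (13.72 to 13.95), its macrophage list was the highest of T (8.08 against 7.61 to 7.88), and the part of these levels in the result was not tested. Without T2, the median difference of the 41 genes between T and C was -0.20, and 36 of the 41 differences were below 0. On both slides taken alone, all 11 genes were lower in T than in C. The log2 differences were -2.46 to -0.51 on slide 1 and -1.86 to -0.32 on slide 2. The 11 were picked by T against C in these same mice, and mice C3 and T4 had an array on each slide. The slides are thus no independent test of the direction.

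With Gas1 delivered, most of the 41 genes had higher means than in group T, but none passed the threshold over all genes. In G against T, limma called 0 of the 41 genes, where 0.127% of all genes were called. Before adjustment, 17 of the 41 (41.5%) were higher in G at p under 0.05, beside 4.13% of all genes, and none was lower. The methods' t-test with Benjamini-Hochberg adjustment also called 0 with equal and with unequal variances, and had 16 and 12 genes at an unadjusted p under 0.05. The log2 difference was above 0 for 38 of the 41 with a median of 0.27, against -0.01 over all genes. In 5 genes (12.2%), namely Fabp1, Plin2, Acadvl, Decr1 and Acot1, every mouse of G lay above every mouse of T, beside 1.09% of all genes. Of the 8478 genes well above background on every array, 560 were higher in G at an unadjusted p under 0.05. In 130 of the 8478 every G mouse lay above every T mouse. This comparison uses the same 4 T mice as that of T with C, so the values of both are not independent. Calls appeared without mouse T1 (Acaa2, Acadvl, Acot1 and Etfdh, adjusted p from 0.0169 to 0.038) and without G4 (Ehhadh). With slide as a term and arrays of 1 RNA code as a random block, 4 genes were called (Acaa1b, Acaa2, Acadvl and Acot1), each at an adjusted p of 0.0497 or 0.05 after rounding.

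Against group C, no gene of the 41 passed in group G either, where 0.427% of all genes were called. The lowest adjusted p was 0.104, 8 of the 41 had an unadjusted p under 0.05 (2 higher, 6 lower), and the methods' t-tests called 0 after adjustment. Over all 22032 genes, limma gave 2906 at an unadjusted p under 0.05 in this comparison (1360 higher, 1546 lower). The median difference of the 41 genes was -0.06, with 19 genes above and 22 below 0. Each of the 11 genes that fell in T had its G mean between the means of T and C, at 45.8% to 90.9% of C. The 11 were picked by T against C in these same mice, which favours this order. The share of all genes with this order was not counted. In 4 of the 11, Acads, Acadl, Decr1 and Etfdh, all mitochondrial, every G mouse still lay below every C mouse. The same held for 664 of all 22032 genes, and for 466 of the 8478 well above background on every array. The 11 were picked with the same C mice, which also favours low values of G against C. The map of all genes by mouse shows this order along with mice such as G4, which held Ehhadh, Acaa1b and Hadh lower than the rest of its group.

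**Figure D5:**
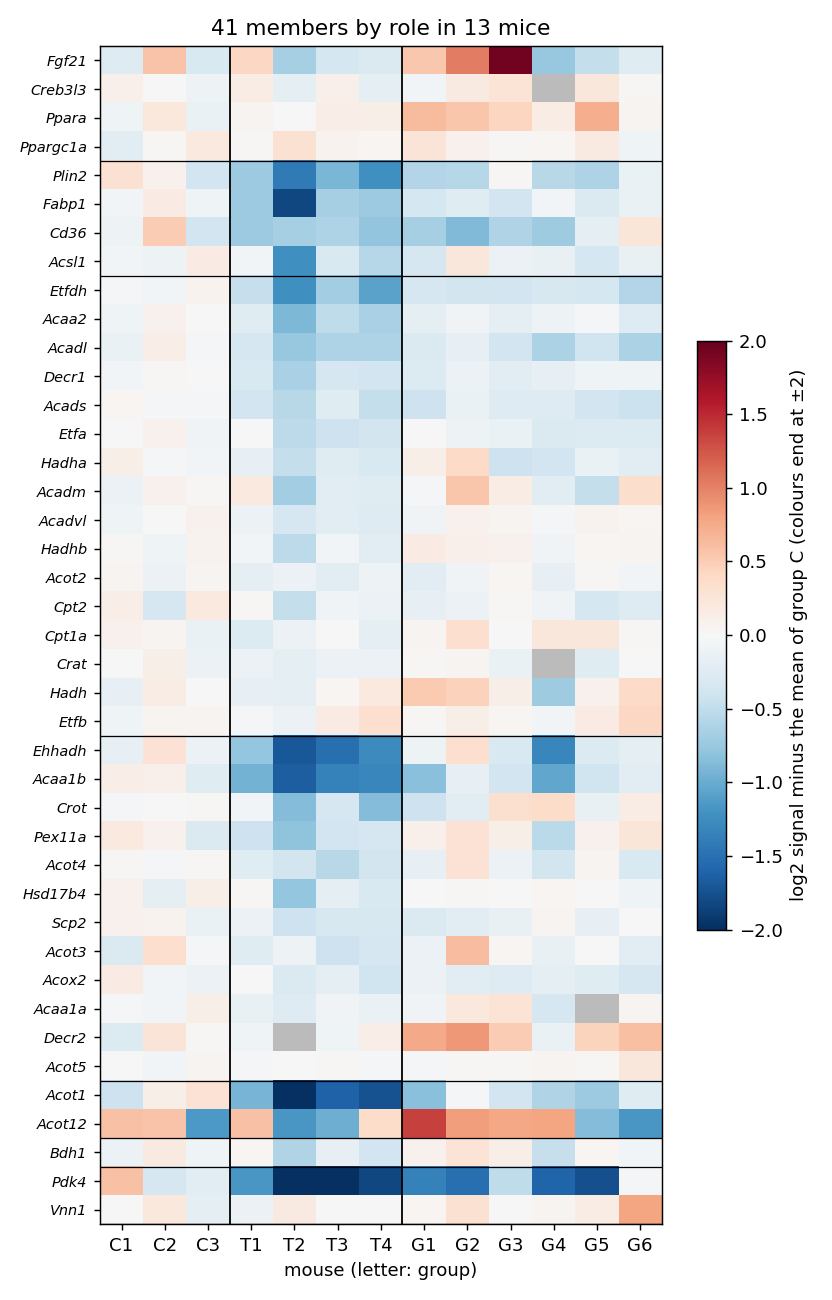
Log2 signal minus the mean of group C for 41 genes (rows, ordered by role and then by the difference of T from C) in 13 mice (columns), where blue is lower and red is higher than C and grey marks a mouse without a valid spot. The bluest cells are those of Acot1, Pdk4, Fabp1, Ehhadh and Acaa1b in T mice, T2 above all, and the G columns are paler in most of these genes, less so in Pdk4. Under median scaling the T means of 31 genes lie above C, where the median difference of genes well above background on all arrays is 0.65.

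Further genes of the same pathways were read from lists that hold none of the 41. Among 15 further mitochondrial genes, Acad11, an acyl-CoA dehydrogenase, fell in T by 0.65 on the log2 scale (adjusted p = 0.0308). The list had a median of -0.42, with 13 genes below 0. Of 26 further peroxisomal genes, 3 fell in T: Pex16, a peroxisome assembly factor, by 0.56 (adjusted p = 0.0140), Abcd3, the acyl-CoA transporter of the membrane, by 0.79 (adjusted p = 0.0203) and Cat, the catalase, by 0.64 (adjusted p = 0.0333). The median was -0.18, with 19 below 0. Among 15 further PPAR alpha targets, Me1, the malic enzyme that supplies NADPH and also serves fat synthesis, fell by 2.05 (adjusted p = 0.00992) and Aldh3a2, the fatty aldehyde dehydrogenase, by 1.73 (adjusted p = 0.0468), at a median of -0.22. Of 13 further regulators, Ppard, which codes for PPAR delta, was the one called. It averaged 9.07 ± 0.46 (SD, n = 3) in C, 7.67 ± 0.49 (n = 4) in T and 7.45 ± 0.22 (n = 6) in G, and was lower than C in both T (adjusted p = 0.0205) and G (adjusted p = 0.0252). None of these 69 genes was called between G and T.

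Other lists moved with the groups as well. Of 14 genes of the circadian clock, 4 rose in T, namely Dbp, Nr1d1, Nr1d2 and Tef, and 3 of these (Dbp, Nr1d1 and Tef) were also higher in G than in C. The difference of T from C was above 0 for 10 of the 14 and below 0 for 4. Among the 4 were Arntl at -1.04 (adjusted p = 0.0683) and Nfil3 at -0.79 (adjusted p = 0.157). Dbp, a transcription factor whose mRNA cycles steeply in liver, had a log2 signal of 7.03 to 8.26 in C, 9.37 to 11.99 in T and 10.59 to 12.81 in G. The mean of the clock list was 7.21 to 7.49 in C, 7.82 to 8.07 in T and 7.83 to 8.27 in G, so that C stood apart. This mean joins genes that moved in opposite directions. Of 7 genes that feeding raises, Scd1 and Elovl6, a desaturase and an elongase of fat synthesis, fell in T by 2.19 (adjusted p = 0.0114) and 1.67 (adjusted p = 0.0337). Their list averaged 10.51 to 11.10 in C, 9.19 to 10.12 in T and 9.25 to 10.08 in G. Of 5 genes that fasting raises, a list that includes Ppargc1a, only Pck1, an enzyme of glucose synthesis, was called, higher in G than in C (adjusted p = 0.0495). Against C, 4 of the 5 were above 0 and 1 below 0 in each of T and G. The lower gene was G6pc in T (-0.72) and Igfbp1 in G (-0.32). The fasting list averaged 10.65 to 10.85 in C, 10.84 to 11.26 in T and 10.89 to 11.87 in G. On both the clock and the feeding list T and G overlapped. The part of the hour of sampling or of feeding in the differences from C was not tested, and the sources used here give neither.

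Of 8 macrophage markers 1 rose in T, Emr1, which codes for F4/80, by a log2 difference of 0.31 (adjusted p = 0.0262). Emr1 was dim, and well above background on 2 of 4 arrays of C. Of the 8 markers, 6 had a difference of T from C above 0 and 2 below 0. Cd68, also dim, was among the 2, at -0.25 ± 0.08 (adjusted p = 0.101). The macrophage list averaged 7.35 to 7.70 in C, 7.61 to 8.08 in T and 7.59 to 7.98 in G. Of 10 hepatocyte markers Ttr, the carrier of thyroid hormone and retinol, fell in T by 1.01 (adjusted p = 0.00594). The difference of T from C was above 0 for 4 of the 10 and below 0 for 6. Apoa1 was higher in T by 0.54 (adjusted p = 0.0686), with every T mouse above every C mouse. The 5 red cell markers averaged 8.99 to 9.63 in C, 9.81 to 10.01 in T and 9.28 to 10.37 in G. The globin genes Hbb-b1 and Hba-a1 had every T mouse above every C mouse, with T against C at 1.89 ± 0.60 (adjusted p = 0.106) and 1.39 ± 0.50 (adjusted p = 0.148) on the log2 scale. Marco, a scavenger receptor of macrophages, had T against C at 0.83 ± 0.32 (adjusted p = 0.171), with T and C overlapping. No marker of endothelium, bile duct, fat, red cells or proliferation was called in any comparison. The part of cell makeup in the falls of the 41 genes was not tested.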

How the data were processed

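Total RNA from mouse liver was hybridised to single-colour Agilent arrays, and the deposited scanner files, made by the authors with Agilent Feature Extraction, hold spot intensity with its local background. The authors also deposited a table of log2 values, used only as an alternative. Background was corrected with normexp (offset 50) in limma 3.58.1 (R 4.3.3), outlier spots were dropped, arrays were quantile normalized, and spots of a probe and centred probes of a gene symbol were averaged, which gave 22032 genes. The offset compresses small signals, so fold changes of dim genes are understated. Arrays that carried 1 RNA code were averaged, which left 13 mice. Each gene was fitted with 1 mean per group (lmFit, eBayes), with Benjamini-Hochberg adjustment over all genes and a threshold of 0.05. The number of mice limits the precision, and no source says that they came from separate litters. The test was run on simulated data first. The 41 genes, the lists and the tests were chosen with earlier results of these data known. Values in every mouse of C and T, and the lowest, median and highest of G, are given for genes with an adjusted p under 0.05 in any comparison and for Ppara, Ppargc1a, Cpt1a, Ehhadh, Acaa1a, Acaa1b, Fgf21 and Bdh1; other list genes are named at an adjusted p under 0.05, at most 4 a list. Some list genes are not reported here. The labels name TRIzol for the extraction and the study's methods a spin-column kit. Other scalings, offsets, probe rules, slide and replicate terms, single slides, left-out mice and tests were run as alternatives.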

Additional observations from a re-analysis of the deposited data

Results flagged for a closer look

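In the 34 groups of 4 to 6 mice behind the genes given in full, 3 single mice stood apart from the rest of their group by Dixon's ratio, and chance alone sets apart about 1 group in 20. Mouse T2 had a log2 signal of 15.51 for Fabp1, where the other T mice lay at 16.61 to 16.66. The same mouse was at 6.74 for Ppargc1a, above the others at 6.46 to 6.50. Mouse G6 was at 10.74 for Etfdh, below the other G mice at 10.93 to 11.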

How the results depend on the processing

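Members called between T and C numbered 11. The count was 0 with the processed signal scaled to the 75th percentile and with the t-test in both forms. It was 2 under median scaling (both higher), 4 on slide 1 alone and 1 on slide 2 alone. With a mouse left out it was 1 to 13. Between G and T it was 0, and 1 under cyclic loess, without dim probes and on slide 1 alone, 4 with the slide term, 6 with the 15 arrays as separate samples and 0 to 4 without a mouse. Between G and C the 15 arrays gave 2. Under median scaling the medians of T against C turned to 0.52 (mitochondrial) and 0.48 (peroxisomal), and single differences to 0.10 for Fabp1, 0.47 for Acads, 0.21 for Acadl, 0.50 for Acaa2, 0.25 for Decr1 and 0.13 for Etfdh, while the median of all genes rose to 0.12 and that of detected genes to 0.65; with the 75th percentile the median of all genes was -0.40. Calls over all genes between T and C then split 2818 higher and 14 lower under median scaling, against 268 and 257. For T against C the mitochondrial median was -0.35 on slide 1 alone and ranged from -0.30 to -0.19 without a mouse, and the peroxisomal one was -0.43 with the brightest probe and ranged from -0.39 to -0.30. For G against T the mitochondrial median was 0.08 under median scaling and 0.12 to 0.25 without a mouse, and the peroxisomal one was 0.43 with offset 16, 0.52 without dim probes, 0.42 with the brightest probe and 0.25 to 0.37 without a mouse. The causes were not tested. The title numbers do not pair the mice (deviations of same-numbered mice correlated at -0.315 to 0.252), and with the replicate block 2 members were called between T and C and 0 between G and T.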
